A study of Sus scrofa with 61 samples.

Results

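The cytosolic ribosomal proteins were followed by array in the longissimus muscle of 61 pig fetuses, all male per the study's text. Members were all probes whose gene name, in the scanner files or in the additional gene lists of the study, was RPL or RPS followed by a digit, or RPLP0, RPLP1, RPLP2 or RPSA, with the RPS6K kinases left out. Of 302 such probes, 296 passed the scanner's mark for a signal well above background in 80% or more of the arrays of some group. They stood for 83 of the 85 member names on the array, out of 30024 names with such a probe in the whole series. The threshold split no close cases. Each of the 296 probes was well above background on every array of at least 1 group, and the other 6 reached 0% to 25% of the arrays of their best group. Through those 6 probes the names RPL13 and RPS4X had no measured level, whereas RPS26, RPS28 and RPS29 were among those that kept another probe. Under the name RPS4, 15 probes were kept, and whether they read RPS4X was not examined. Among the 83 names, 69 are core ribosomal proteins, 7 are paralogs such as RPL3L and RPL10L, and 6 carry a pseudogene name (RPL13AP3, RPL13AP5, RPL21P28, RPS10P5, RPS26P11 and RPS2P32). The remaining name, RPS19BP1, fits the naming rule but is a binding partner of RPS19 and not a ribosomal protein. Probes of near-identical copies cannot be assigned with certainty, so a value under the name of a pseudogene or a paralog may belong to its parent gene.

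Every fetus was of 1 of 4 genotypes. LW and MS fetuses were purebred Large White and Meishan, LWMS fetuses came from MS sows and LW boars, and MSLW fetuses from LW sows and MS boars. At gestational day 90 each genotype had 8 fetuses, and at day 110 there were 9 LW, 7 MS, 8 LWMS and 5 MSLW fetuses. Sows were inseminated with mixed semen, so a litter held purebred and crossbred fetuses. The labels do not give the sow, and littermates were counted as separate fetuses. No fetus received a treatment. RNA of each fetus was hybridized alone, with Cy3, to its own array. Large White and Meishan pigs differ in piglet survival at birth, and the comparisons ask what changes in fetal muscle near birth and where the breeds and their reciprocal crosses differ.

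Ribosomal proteins are the protein part of the ribosome, which translates mRNA. The large subunit (RPL genes) forms peptide bonds, the small subunit (RPS genes) decodes the mRNA, and the stalk proteins RPLP0, RPLP1 and RPLP2 recruit translation factors to the large subunit. Their mRNAs are among the most abundant of most cells, carry a shared 5′ terminal oligopyrimidine tract and are translated under the control of the mTOR pathway.

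Levels are log2 of the background-corrected signal after quantile normalization, which gives all arrays the same distribution of values. Differences are log2 differences of group means from limma, with standard errors, and p values were adjusted over all 42436 kept probes (Benjamini-Hochberg, two-sided) and called at 1%. A gene is represented by its brightest probe, called its main probe here. The same fits were run after each array had only been shifted to a common 75th percentile (75th percentile scaling). On the 61 arrays, 57% to 75.8% of the spots were well above background and the 75th percentile of the log2 signal was 8.88 to 10.18. The arrays lay on 8 slides. Of the 83 main probes, 80 were well above background on all arrays and none was saturated. Of 22 skeletal muscle markers 21 were measured, and the log2 of their summed signal was 21.62 to 22.06 in every fetus. In such a sum the brightest markers weigh most.

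With age, the mRNA levels of many ribosomal protein genes moved down or up according to how the arrays were scaled. After quantile normalization, 74 of the 83 genes (89.2%) changed between day 90 and day 110 over the 4 genotypes, against 72.3% of all probes. At day 110, 60 of them were lower, against 35% of all probes, and 14 higher, against 37.3%. After 75th percentile scaling 61 changed, against 71.7% of all probes, of which 4 were lower (31.5% of all probes) and 57 higher (40.2% of all probes). The median age change of the members was -0.30 on the quantile scale and 0.21 on the 75th percentile scale, while the median over all probes was 0.04 and 0.09. Of the genes, 40 were called in opposite directions by the 2 scalings, against 1.4% of all probes. All 40 had a main probe at a level of 14 or above, whereas most of all probes are dimmer. Another 18 genes were called in the same direction, 4 lower and 14 higher, against 67.1% of all probes. The core large subunit genes (30 lower and 6 higher of 39, median -0.31) and the core small subunit genes (24 lower and 4 higher of 30, median -0.32) had like counts, and after 75th percentile scaling 31 and 21 of them were higher and 2 and 0 lower.

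**Figure D1:**
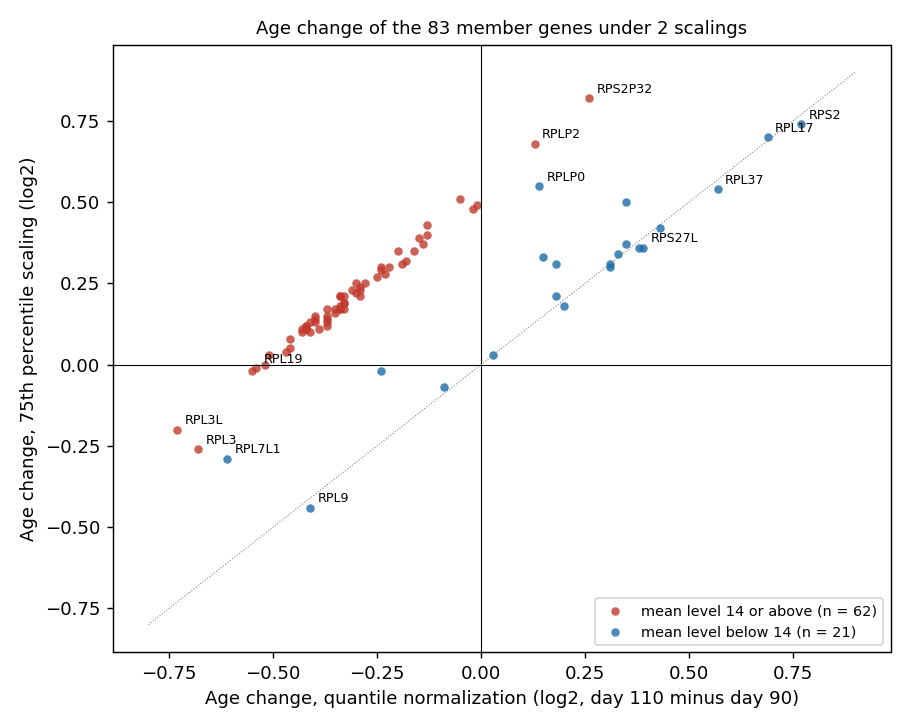
Age change (log2, day 110 minus day 90, mean over the 4 genotypes) of the main probe of each of the 83 member genes after quantile normalization (x axis) and after 75th percentile scaling (y axis), coloured by the mean log2 level of the probe. Most of the 62 bright probes lie left of 0 on the x axis and above 0 on the y axis, and RPL3, RPL3L, RPL7L1 and RPL9 are below 0 on both.

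Within each genotype most of the called genes were lower on the quantile scale, whereas on the 75th percentile scale the number of higher genes ran from 10 in LW to 49 in MS. In LW 58 genes were called, against 45.3% of all probes, with 54 lower (23.5% of all probes) and 4 higher (21.8%). After 75th percentile scaling 1 was lower and 10 higher, against 21.8% and 22.9% of all probes. In MS 66 were called, against 56.7% of all probes, with 55 lower (28.1%) and 11 higher (28.6%). The other scaling gave 2 lower and 49 higher in MS, against 24.1% and 32.8% of all probes. In LWMS 67 were called, against 50.9% of all probes, with 56 lower (25.7%) and 11 higher (25.1%), and the other scaling gave 2 lower and 32 higher (23.3% and 27.6%). In MSLW 57 were called, against 44.6% of all probes, with 52 lower (23.8%) and 5 higher (20.8%), and the other scaling gave 2 lower and 23 higher (21.2% and 22.9%). The member median of the age change on the quantile scale was -0.23 (LW), -0.35 (MS), -0.32 (LWMS) and -0.27 (MSLW). On the 75th percentile scale it was 0.06, 0.34, 0.21 and 0.20, respectively.

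For each fetus, the levels of the 83 genes were set against their means over all arrays and the median was taken. On the quantile scale this median was 0.08 to 0.22 (median 0.14) in LW at day 90 and -0.22 to 0.05 (median -0.04) at day 110, and in MS it went from 0.06 to 0.14 (median 0.09) to -0.29 to -0.16 (median -0.24). It was 0.05 to 0.22 (median 0.17) in LWMS at day 90 and -0.20 to -0.06 (median -0.14) at day 110, and -0.01 to 0.27 in MSLW at day 90 and -0.21 to -0.10 at day 110. Day 90 and day 110 did not overlap within any genotype. On the 75th percentile scale the order of the days was the reverse. MS fetuses were at -0.27 to -0.05 at day 90 and 0.03 to 0.31 at day 110, again without overlap, and LW fetuses were at -0.20 to 0.17 and -0.07 to 0.25, which overlapped. The shape of the signal distribution moved with age. The distance from the 75th to the 99th percentile of the log2 signal was 6.62 to 6.87 in LW and 6.59 to 6.74 in MS at day 90, and 6.90 to 7.25 in LW and 7.29 to 7.57 in MS at day 110, so that the brightest spots lay further above the rest near birth. Its part in the age change of the members was not tested. Within each of the 8 slides the quantile-scaled member median was lower at day 110, by 0.17 to 0.38.

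**Figure D2:**
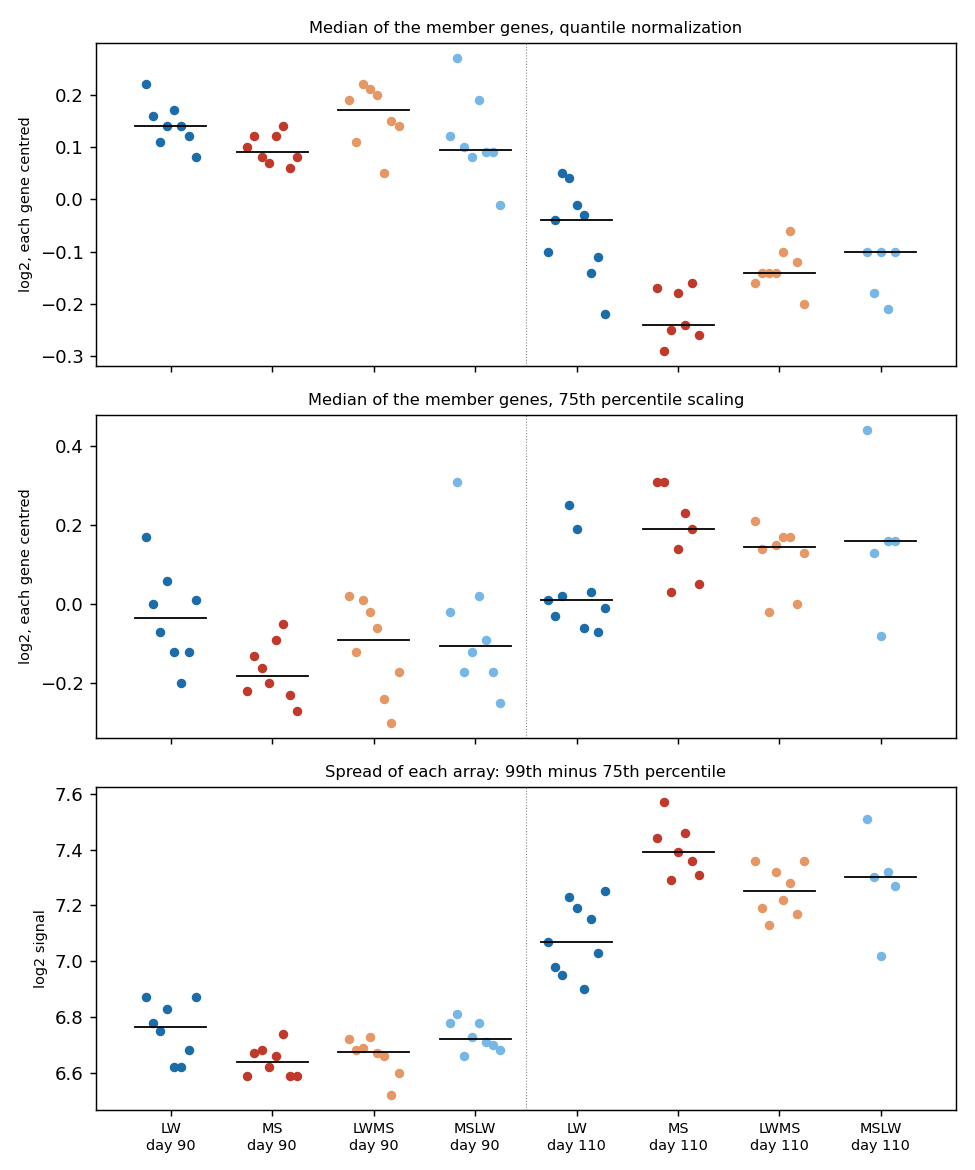
Each point is 1 fetus, grouped by genotype and day, and each line is the group median. The upper panels give the median of the 83 members (log2, relative to the mean over arrays) after quantile normalization, where day 110 is lower, and after 75th percentile scaling, where day 110 is mostly higher. The lowest panel gives the distance from the 75th to the 99th percentile of the log2 signal of each array, from 6.52 to 6.87 at day 90 and from 6.90 to 7.57 at day 110.

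The members sit at the top of the signal range, and their age change differed by the level of the probe. Of the 83 main probes, 54 had a mean level of 16 or above, where the whole array had 756 probes. These 54 had a median age change of -0.33 on the quantile scale and 0.19 on the 75th percentile scale, and all 756 probes of that level had -0.12 and 0.40. The median of the members was therefore below that of equally bright probes on each scale, which is a description without a test. At levels of 14 to 16, the 8 members had -0.38 and 0.13 against -0.14 and 0.35 for all probes. Below 8, the 4 members had 0.30 and 0.27 against 0.09 and 0.07, and the 8 members between 8 and 10 had 0.35 and 0.33 against 0.04 and 0.02. Of the 62 genes with a main probe at 14 or above, 57 were lower and 2 higher on the quantile scale (2 lower and 45 higher on the other), whereas of the 21 below 14 only 3 were lower and 12 higher, and the count was 2 and 12 on the other scale. Levels of different probes cannot be compared with each other as amounts of mRNA.

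**Figure D3:**
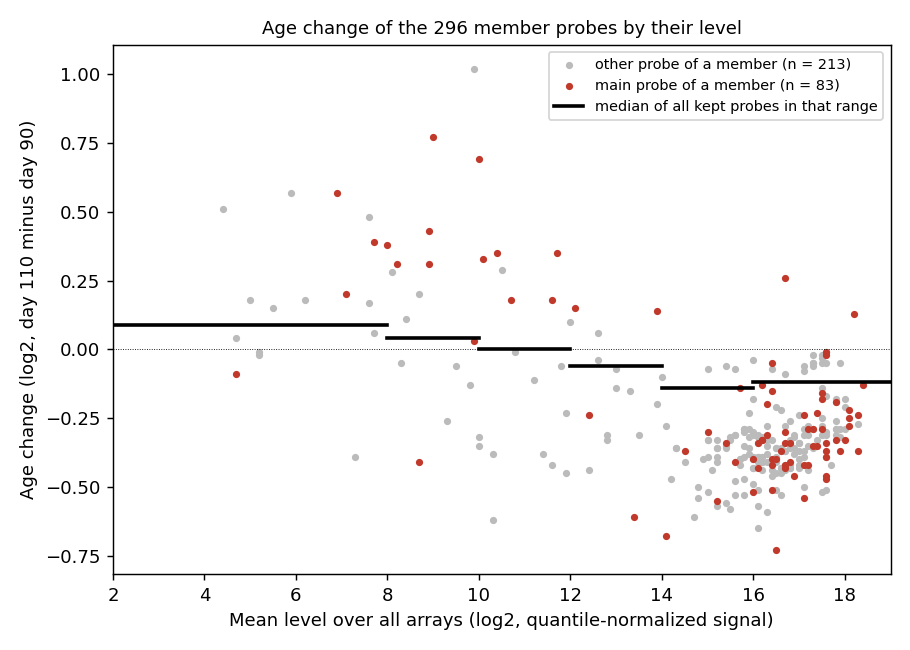
Age change (log2, day 110 minus day 90, quantile normalization) of the 296 member probes against their mean log2 level, with main probes in red, other probes in grey and the median of all kept probes of each range of level as a black bar. Most members above 14 lie below the bar and below 0, and after 75th percentile scaling, which is not drawn, most of those main probes are above 0.

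Genes that were lower at day 110 under both scalings were RPL3L, RPL3, RPL7L1 and RPL9. RPL3 lines the peptidyl transferase centre of the large subunit, and RPL3L is its paralog, which replaces it in skeletal muscle and heart. RPL3L was at 16.69 to 17.05 (median 16.91) in LW at day 90 and at 16.01 to 16.51 (median 16.39) at day 110. In MS it went from 16.63 to 16.88 (median 16.77) to 15.58 to 16.10 (median 15.82), and in LWMS from 16.76 to 17.04 (median 16.88) to 15.97 to 16.43 (median 16.18). In MSLW it was at 16.59 to 17.12 (median 16.82) at day 90 and at 16.04, 16.05, 16.06, 16.10 and 16.23 in the 5 fetuses of day 110. Day 90 and day 110 did not overlap in any genotype on this scale. The difference was -0.73 ± 0.04 (SE, limma adjusted p = 1.1e-24), the largest fall among the members, and -0.20 (adjusted p = 4.6e-05) after 75th percentile scaling, where the days overlapped in every genotype (16.60 to 16.78 and 16.22 to 16.73 in LW). Within the slides it was lower at day 110 on 8 of 8, by 0.55 to 0.99.

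RPL3 itself moved the same way. It was at 14.33 to 14.65 (median 14.55) in LW and 14.06 to 14.43 (median 14.31) in MS at day 90, and at 13.65 to 14.18 (median 13.92) and 13.26 to 13.82 (median 13.48) at day 110. In LWMS it went from 14.15 to 14.73 (median 14.42) to 13.51 to 14.03 (median 13.72), and the MSLW fetuses went from 14.23 to 14.72 (median 14.33) to 13.41, 13.64, 13.69, 13.69 and 13.87. The days did not overlap in any genotype on this scale. The difference was -0.68 ± 0.04 (adjusted p = 2.7e-21) and -0.26 (adjusted p = 2.9e-06) on the 75th percentile scale, where they overlapped in all 4 genotypes. The probes named for the muscle paralog and for the general form thus both fell. Whether the single RPL3L probe reads RPL3L apart from RPL3 was not tested. Levels on different probes also say nothing of which mRNA was the more abundant.

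RPL7L1, a paralog of RPL7 that takes part in building the large subunit in the nucleolus, went from 13.32 to 13.95 (median 13.69) to 12.90 to 13.51 (median 13.30) in LW and from 13.26 to 13.87 (median 13.55) to 12.61 to 13.27 (median 12.78) in MS, with a small overlap of the days in both breeds. Its difference was -0.61 ± 0.05 (adjusted p = 7.9e-16) and -0.29 (adjusted p = 3.8e-06) on the 75th percentile scale. Its other 3 probes gave -0.33 to -0.11. RPL9, a large subunit protein, was measured by a single probe at 8.92 to 9.45 (median 9.09) in LW at day 90 and 8.49 to 9.03 (median 8.70) at day 110, and at 8.56 to 8.98 (median 8.67) and 8.23 to 8.45 (median 8.34) in MS, with no overlap in MS. Its difference was -0.41 ± 0.05 (adjusted p = 1.3e-10) and -0.44 (adjusted p = 1.1e-11) on the 75th percentile scale, the one fall that was not smaller there.

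The other large falls on the quantile scale were not called on the 75th percentile scale. RPL19, which bridges the subunits, was at 17.26 to 17.50 in LW and 17.18 to 17.43 in MS at day 90 and at 16.58 to 17.29 and 16.49 to 16.80 at day 110, a difference of -0.54 ± 0.03 (adjusted p = 3e-22), but -0.01 (adjusted p = 0.86) on the 75th percentile scale. The RPS10 pseudogene name RPS10P5 gave -0.55 ± 0.04 and -0.02 (adjusted p = 0.68).

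Among the 14 genes that were higher at day 110 under both scalings, the largest differences were those of RPS2, RPL17 and RPL37. RPL17, at the exit of the peptide tunnel, was at 9.39 to 10.11 (median 9.71) in LW and 9.35 to 9.94 (median 9.57) in MS at day 90, and at 9.98 to 10.45 (median 10.22) and 10.22 to 10.72 (median 10.57) at day 110. The day 110 fetuses of MS were all above those of day 90, and LW overlapped slightly. The difference was 0.69 ± 0.05 (adjusted p = 4.5e-18) and 0.70 on the other scale. RPL37, a zinc-binding protein of the large subunit, rose by 0.57 ± 0.07 (adjusted p = 1.4e-11) from medians of 6.68 in LW and MS to 7.06 and 7.33. RPS27L, a p53-regulated paralog of RPS27, rose by 0.39 ± 0.05 (adjusted p = 3.3e-09). RPS19, a small subunit protein mutated in Diamond-Blackfan anaemia, rose by 0.35 and RPL26 by 0.35, and on the 75th percentile scale by 0.37 and 0.50. The only kept RPL26 probe, at 11.7, reads the strand opposite to a brighter probe, at 15.3, that fell by 0.46 on the quantile scale. The rise under the name RPL26 may thus belong to another transcript, which was not tested. RPS9, RPL7A, RPL13AP3 and RPL13AP5 made smaller or equal changes of 0.18, 0.15, 0.31 and 0.33. Of the 14 genes, 12 had a main probe below 14, among them RPLP0 at 13.9, and only RPLP2 and RPS2P32 had a brighter one.

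The only kept probe named RPS2, a gene whose protein lies at the mRNA entry site, rose by 0.77 ± 0.22 (adjusted p = 0.0012). This was the largest value among the members, and that rank rested on 1 fetus. In MSLW at day 90 the levels were 2.38 to 9.18 with a median of 8.85, and the fetus at 2.38 stood apart from the other groups, which were at 8.67 to 9.29 at day 90 and 8.96 to 9.76 at day 110. Without that array, an alternative added after the values were seen, the difference was 0.57 (adjusted p = 1.1e-18), below those of RPL17 (0.69) and RPL37 (0.59). The RPS2 probe reads the strand opposite to the probe named RPS2P32 over 23 bases, so the 2 cannot both read the RPS2 mRNA. The RPS2 probe had a mean level of 9 and the RPS2P32 probe of 16.7. The rise under the name RPS2 may thus belong to another transcript, which was not tested. Both probes are shown because they carry the same stretch of the RPS2 sequence on opposite strands. The capitals mark the stretch in which each is the reverse complement of the other.
RPS2 probe O3817: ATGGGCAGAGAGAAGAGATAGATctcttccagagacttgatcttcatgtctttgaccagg
RPS2P32 probe O2000: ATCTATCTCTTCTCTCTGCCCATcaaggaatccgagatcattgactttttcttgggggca
The RPS2P32 probe was bright, at 16.36 to 16.64 (median 16.54) in LW and 16.39 to 16.56 (median 16.46) in MS at day 90, and at 16.46 to 17.07 (median 16.68) and 16.61 to 17.06 (median 16.82) at day 110. Its MS fetuses did not overlap between the days and its LW fetuses did. The difference was 0.26 ± 0.04 (adjusted p = 2.7e-09) and 0.82 (adjusted p = 1.4e-20) on the 75th percentile scale, which was the largest rise of the members on that scale and 1 of the 2 rises among bright main probes on the quantile scale.

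Probes on the opposite strand of a member were found for other genes as well, and in these pairs the bright probe and the dim probe moved in different directions on the quantile scale. The RPS10 probe at level 16 changed by -0.52 and the probe opposite to it, at 3.3, by 0.83. The RPS28 probe at 18.1 changed by -0.22 and its opposite at 4.1 by 0.55. The RPSA probe at 16 changed by -0.39 and its opposite at 6.7 by 0.38, and the RPS4 probe at 13.3 changed by -0.15 and its opposite at 8.2 by 0.26. For RPL26 the order was the other way round, since the member probe at 11.7 rose by 0.35 and the probe opposite to it, named MT-2B on the array and at 15.3, fell by 0.46. The same order by level was seen over all probes on this scale, with a median of 0.09 below a level of 8 and -0.12 at 16 or above. After 75th percentile scaling these medians were 0.07 and 0.40, so the opposite directions of the pairs hold for the quantile scale only as given here. These pairs were picked for their shared sequence of at least 20 bases, and what the dim probes bind was not tested.

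Of the 3 stalk genes, RPLP0 and RPLP2 were higher at day 110 under both scalings. RPLP0, which anchors the stalk, was at 13.79 to 14.17 (median 13.93) in LW and 13.63 to 13.93 (median 13.78) in MS at day 90, and at 13.64 to 14.16 (median 13.96) and 13.91 to 14.13 (median 14.06) at day 110. The LW ranges overlapped almost fully. The mean difference was 0.14 ± 0.03 (adjusted p = 0.00017) on the quantile scale and 0.55 (adjusted p = 1.4e-16) on the other. RPLP2 went from 17.97 to 18.31 (median 18.13) to 18.19 to 18.38 (median 18.32) in LW and from 18.08 to 18.28 (median 18.12) to 18.24 to 18.42 (median 18.34) in MS, a rise of 0.13 ± 0.03 (adjusted p = 1.9e-05) and of 0.68 (adjusted p = 1.5e-20) on the other scale. Within slides RPLP2 rose by 0.09 to 0.18 on each of the 8. RPLP1, its partner in the stalk, fell by 0.13 ± 0.03 (adjusted p = 2.1e-05) on the quantile scale, rose by 0.43 (adjusted p = 2.2e-13) on the other, and gave 0.07 (adjusted p = 0.17) as the mean over its 6 probes, so its direction is not settled.

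RPSA, a small subunit protein that also serves as a laminin receptor, and RPS6, the small subunit protein phosphorylated by the RPS6K kinases, both changed direction with the scaling. RPSA went from 16.57 to 16.79 (median 16.68) to 16.04 to 16.45 (median 16.31) in LW and from 16.58 to 16.69 (median 16.63) to 15.99 to 16.34 (median 16.10) in MS, without overlap, a difference of -0.40 ± 0.03 (adjusted p = 3.3e-21) against 0.14 (adjusted p = 0.00091) on the 75th percentile scale. RPS6 differed by -0.37 ± 0.07 (adjusted p = 7.4e-06) against 0.17 (adjusted p = 0.051), and its MS fetuses of day 110 were spread from 15.37 to 16.72. The ribosomal proteins named in the additional gene lists of the study were RPL6, RPL7, RPL11, RPL23, RPL26L1, RPL31, RPL32, RPL3L, RPS3, RPS20, RPS23 and RPS27A, and since those lists were made on these fetuses their changes are not independent evidence. Apart from RPL3L, they fell by 0.24 (RPS20) to 0.47 (RPS23) on the quantile scale and were 0.04 (RPS23) to 0.29 (RPS20) higher on the 75th percentile scale, where RPS23 and RPL26L1 did not pass the test. RPS19BP1, also in those lists, differed by -0.24 and by -0.02 (adjusted p = 0.74).

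By main probe, the paralogs did not move as a group. RPL3L and RPL7L1 fell under both scalings and RPS27L rose under both. RPL26L1 and RPL36AL fell by 0.42 and 0.41 on the quantile scale, with 0.11 and 0.10 and no call on the other. The RPL26L1 main probe had a mean level of 17.1. Its probes A_72_P537038, A_72_P571334 and A_72_P676519 were at 11.4, 11.9 and 11.6, and the probe named RPL26 at 11.7. The bright value may therefore belong to RPL26. The single probe named RPL10L, a paralog of RPL10 described mainly in testis, was bright in all fetuses, at 16.17 to 16.73. It differed by -0.05 (adjusted p = 0.096) against 0.51 (adjusted p = 5.6e-17). Its value may likewise belong to RPL10, and neither assignment was tested. RPL22L1, a paralog of RPL22, gave 0.20 (adjusted p = 0.023) and 0.18, short of the threshold on both, and was called without MSLW replicate 3 of day 110 (0.23, adjusted p = 0.0092), without slide 8 and with the slide as a block. Genes without a call on the quantile scale were RPL10, RPL10A, RPL10L, RPL21P28, RPL22L1, RPL41, RPS7, RPS26P11 and RPS27.

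Between the breeds, few ribosomal proteins differed at day 90 by main probe. Over the 296 member probes, 35 (11.8%) in 17 genes were called, against 12.8% of all probes. After quantile normalization 9 of 83 (10.8%) were called between MS and LW, against 12.8% of all probes. In MS 6 were lower (6.61% of all probes) and 3 higher (6.23%), and after 75th percentile scaling 7 were lower (6.56%) and none higher (5.18%). The member median was -0.05 and -0.15. RPL15, RPL31, RPL9 and RPS4 were among those lower in MS under both scalings, and 11.4% of all probes were called in the same direction by both. RPL15, a large subunit protein, was at 14.75 to 15.03 (median 14.89) in LW and 14.20 to 14.83 (median 14.49) in MS, a difference of -0.37 ± 0.08 (adjusted p = 0.00032) and of -0.38 on the other scale. A second, dimmer RPL15 probe gave 0.03, and the mean over both, -0.17, lost the call (adjusted p = 0.046). RPL9 differed by -0.42 ± 0.10 (adjusted p = 0.00073) with slightly overlapping ranges, and was lower in MS on 8 of 8 slides. RPL31, beside the tunnel exit, was at 17.77 to 17.98 (median 17.88) in LW and 17.54 to 17.75 (median 17.69) in MS, which did not overlap, and differed by -0.20 ± 0.05 (adjusted p = 0.0031). RPL31 lost its call with the median signal, with normexp and with the deposited values.

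The 3 genes that were higher in MS at day 90 were called on the quantile scale only. RPS25 differed by 0.26 (adjusted p = 0.0036), RPL27 by 0.25 (adjusted p = 0.00098) and RPL12 by 0.21 (adjusted p = 0.0013), with 0.14, 0.14 and 0.10 and no call after 75th percentile scaling. RPL27 lost its call also with the median signal, normexp and the deposited values (0.19 to 0.20), and RPS25 without slide 8 (0.21, adjusted p = 0.033). RPL12, at the base of the stalk, was at 16.14 to 16.36 (median 16.32) in LW and 16.42 to 16.52 (median 16.50) in MS, without overlap on this scale. Its other probes differed, so that the mean over all of them was -0.08.

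At day 110 the breeds differed in more members, in a direction that again differed with the scaling. On the quantile scale 35 genes (42.2%) were called, against 29% of all probes, of which 31 were lower (15.2% of all probes) and 4 higher (13.7%) in MS. On the 75th percentile scale 2 were lower (12.8%) and 19 higher (17%). The member median was -0.13 and 0.14, and the median over all probes 0.01 and 0.06. Over all probes at 16 or above the median was -0.09 and 0.25, and over the members among them -0.18 and 0.15. Within the 6 slides that held both breeds at day 110, the quantile-scaled member median was lower in MS on each, by 0.07 to 0.28.

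Called in the same direction by both scalings at day 110 were RPL12, RPL17, RPS19 and RPS19BP1, higher in MS, and RPL7L1 and RPL9, lower in MS, and 26.4% of all probes were so called. The probes of RPL12 differed here too, since the main probe gave 0.19 (adjusted p = 0.0025), the dim probe O12585 0.56 and the dim probe A_72_P711293 -0.92 (adjusted p = 7.1e-08), the last also called on the other scale (-0.90). RPS19BP1 was at 11.91 to 12.38 (median 12.11) in LW and 12.35 to 12.69 (median 12.40) in MS and differed by 0.40 (adjusted p = 1.4e-05) and 0.52. RPS19 was at 10.23 to 10.68 (median 10.50) in LW and 10.62 to 10.94 (median 10.77) in MS and differed by 0.28 (adjusted p = 0.001). RPL17 differed by 0.32 (adjusted p = 0.0089), near the threshold, and lost its call under 7 of 17 alternatives (0.26 to 0.35, highest adjusted p = 0.017). RPL7L1 differed by -0.49 (adjusted p = 9.7e-05) and -0.37, and RPL9 by -0.39 (adjusted p = 0.0011) and -0.39. By main probe, RPL9 was thus lower in MS on both days and under both scalings. Among the other probes, some were also called on both days and under both scalings. At day 90 and day 110 the RPL36AL probe O10597 gave -0.47 and -0.44 and the RPL36AL probe A_72_P536276 -0.31 and -0.37. The dim RPL30 probe O2275 gave -0.87 and -0.81, and the RPS24 probe A_72_P709730 0.70 and 0.60. RPL3L (-0.47, adjusted p = 1e-06) and RPS6 (-0.49, adjusted p = 0.0032) were lower in MS on the quantile scale, with -0.20 (adjusted p = 0.058) and -0.21 on the other.

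RPS4, a small subunit protein, differed between the genotypes by the breed of the sow on some of its probes. The array holds 15 kept RPS4 probes, and at day 90 MS fell below LW on all of them, with differences of -0.15 to -0.91, of which 11 passed the test. The main probe was at 16.26 to 16.58 (median 16.53) in LW and 16.10 to 16.34 (median 16.16) in MS at day 90, a difference of -0.33 ± 0.06 (adjusted p = 9e-06) and -0.43 on the 75th percentile scale. At day 110 it was at 16.05 to 16.35 (median 16.21) and 15.61 to 15.91 (median 15.75), without overlap, a difference of -0.46 (adjusted p = 4e-09), with -0.19 (adjusted p = 0.03) on the other scale. The probes A_72_P565664 and A_72_P591148 differed far more, and they were singled out after their values were seen. They are printed with A_72_P530047, a probe between them in the target sequence that differed less. In the target sequence of the array design they start at positions 721, 222 and 631, respectively, and all letters are in lower case because no stretch is set apart.
RPS4 probe A_72_P565664: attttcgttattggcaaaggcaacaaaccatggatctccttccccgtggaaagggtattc
RPS4 probe A_72_P591148: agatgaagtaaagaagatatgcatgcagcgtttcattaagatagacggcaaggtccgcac
RPS4 probe A_72_P530047: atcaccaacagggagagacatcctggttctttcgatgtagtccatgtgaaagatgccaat

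On A_72_P565664, LW fetuses were at 16.29 to 16.45 (median 16.34) at day 90 and MS fetuses at 15.29 to 15.53 (median 15.46). The crosses fell on either side of the gap by their sow, with MSLW at 16.20 to 16.42 (median 16.35) beside LW and LWMS at 15.45 to 15.66 (median 15.61) beside MS. At day 110 LW was at 15.90 to 16.24 (median 16.11) and the 5 MSLW fetuses at 15.81, 15.96, 15.97, 16.01 and 16.02, while MS was at 15.07 to 15.36 (median 15.23) and LWMS at 15.28 to 15.35 (median 15.33). No fetus of a LW sow overlapped a fetus of a MS sow on either day. The difference of MS from LW at day 90 was -0.91 ± 0.05 (adjusted p = 6.6e-23) and at day 110 -0.86 ± 0.05 (adjusted p = 1.2e-21), and on the 75th percentile scale -0.96 and -0.59. MSLW minus LWMS was 0.75 ± 0.05 at day 90 (adjusted p = 1.4e-18) and 0.63 ± 0.05 at day 110 (adjusted p = 3.9e-13), and 0.78 and 0.69 on the other scale.

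On A_72_P591148 the picture was the same at a lower level. At day 90 LW and MSLW were at 13.72 to 13.92 and 13.51 to 13.99, and MS and LWMS at 12.76 to 13.07 and 12.84 to 13.19. At day 110 LW was at 13.28 to 13.65, MSLW at 13.27, 13.38, 13.44, 13.49 and 13.54, MS at 12.73 to 12.99 and LWMS at 12.75 to 13.11. Again the fetuses separated by the breed of the sow, without overlap. MSLW minus LWMS was 0.66 (adjusted p = 2.4e-12) and 0.46 (adjusted p = 8.9e-06). On A_72_P530047 it was 0.18 (adjusted p = 0.22) and 0.09 (adjusted p = 0.63), with LWMS at 15.98 to 16.41 and MSLW at 16.21 to 16.68 at day 90, and on the main probe 0.20 (adjusted p = 0.10) and 0.12 (adjusted p = 0.38).

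**Figure D4:**
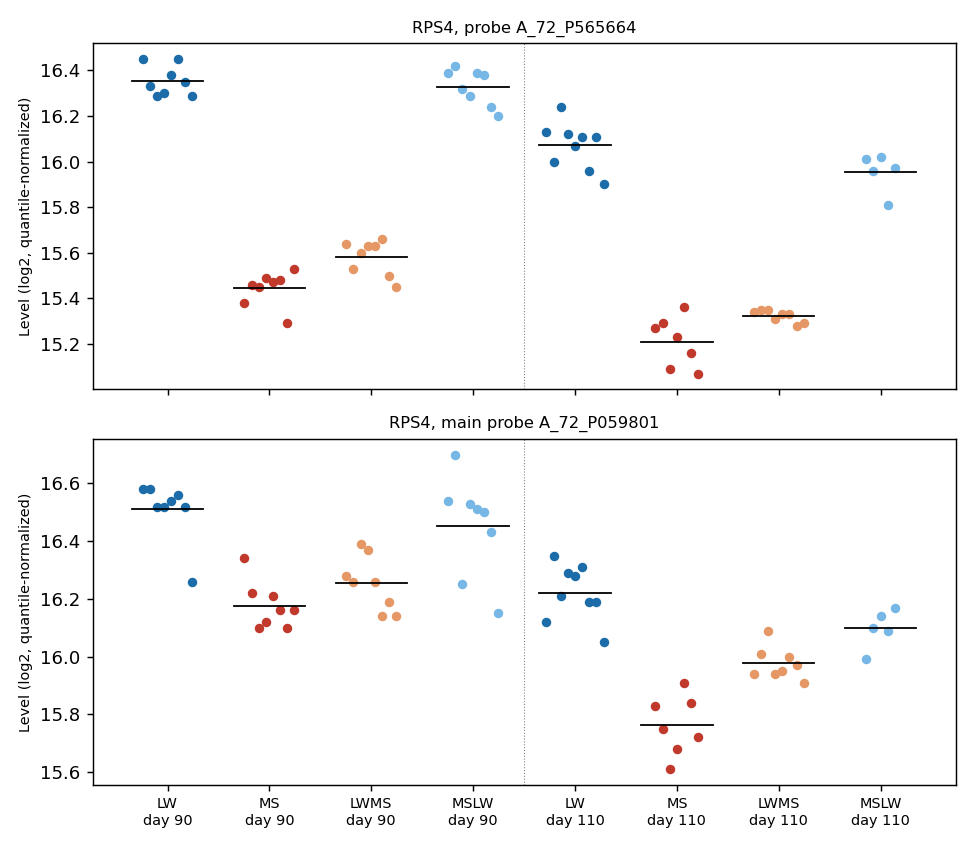
Log2 levels of single fetuses on the RPS4 probe A_72_P565664 (upper panel) and on the main RPS4 probe (lower panel) by genotype and day, after quantile normalization, with the group mean as a line. On A_72_P565664 the fetuses of LW sows (LW, MSLW) lie above those of MS sows (MS, LWMS) without overlap on both days, and on the main probe they overlap.

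By main probe, no ribosomal protein differed between the crosses. limma called 0 of 83 genes at day 90 and at day 110 between MSLW and LWMS, against 0.5% and 0.912% of all probes, with 13 and 7 genes at an unadjusted p under 0.05. RPS4 was called at day 90 with the median signal, normexp, the deposited values and the mean over its probes. Over all 296 probes, 3 were called at day 90 and 2 at day 110, all of them probes of RPS4. In mammals the common form of this gene, RPS4X, lies on the X chromosome, which a male inherits from his dam. RPL10 and RPL36A lie there too, and their main probes gave 0.02 (adjusted p = 0.74) and 0.11 (adjusted p = 0.39) for MS minus LW at day 90. For MSLW minus LWMS at day 90 they gave -0.09 (adjusted p = 0.38) and -0.11 (adjusted p = 0.72). A dim RPL10 probe, O9950, was higher in MS by 0.64 (adjusted p = 0.00061) at day 90 and 0.83 (adjusted p = 5e-06) at day 110, called under both scalings, and gave 0.15 (adjusted p = 0.82) and -0.11 (adjusted p = 0.86) for MSLW minus LWMS. In these male fetuses the X chromosome and the uterus both go with the breed of the sow, so their parts cannot be told apart. The place of the probes in the genome was not examined, and what separates the probes of RPS4 was not tested.

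RPL6 and RPL38 each had a probe on which fetuses of 1 group lay far apart, and these genes were chosen after their values were seen. RPL6, a large subunit protein, had 15 kept probes. Those that start at positions 617 to 692 of the target differed between MS and LW by -0.16 to -0.97 at day 90 and by -0.42 to -1.70 at day 110, and those that start at 387, 708, 730 and 855 by -0.16 to -0.03 and by -0.28 to -0.11. The largest difference was that of A_72_P756548, start 622. The following probes are shown in order of their start, 617, 622, 644, 666 and 708, and capitals mark the longest stretch, of at least 12 bases, that a probe shares with A_72_P756548.
RPL6 probe A_72_P729538: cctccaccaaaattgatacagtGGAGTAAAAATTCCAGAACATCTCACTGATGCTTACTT
RPL6 probe A_72_P756548: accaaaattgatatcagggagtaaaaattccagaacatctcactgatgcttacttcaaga
RPL6 probe A_72_P720998: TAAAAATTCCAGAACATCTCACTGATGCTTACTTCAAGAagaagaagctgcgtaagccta
RPL6 probe A_72_P719128: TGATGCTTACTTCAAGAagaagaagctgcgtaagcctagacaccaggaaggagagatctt
RPL6 probe A_72_P740378: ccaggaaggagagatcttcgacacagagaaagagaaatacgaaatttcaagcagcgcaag
The shared stretch was 38 bases in A_72_P729538, 39 in A_72_P720998 and 17 in A_72_P719128, and none in A_72_P740378. At day 110 MS minus LW was -0.72 (adjusted p = 0.0076), -0.63 (adjusted p = 0.0012), -0.42 (adjusted p = 0.0054) and -0.11 on these, in the same order, and on the 75th percentile scale the first 3 were not called.

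On A_72_P756548 the fetuses of most groups were spread over several log2 units, and part of that spread went with the slide. MS fetuses were at 10.12 to 10.65 at day 90 and 10.46 to 10.68 at day 110 on slides 1, 2, 5 and 6, and at 11.85 to 12.51 and 11.96 to 12.11 on slides 3, 4, 7 and 8. LWMS fetuses of day 110 were likewise at 10.43 to 10.72 and 11.81 to 12.28. The slides were grouped in this way after their values were seen, so the gap between the groups of slides is not a test. What separates the slides was not tested. Over all slides LW was at 10.60 to 14.10 at day 90 and 10.69 to 14.60 at day 110, MSLW at 11.60 to 14.02 and at 10.36, 12.57, 13.50, 13.69 and 13.87, and LWMS at 10.30 to 14.18 and 10.43 to 12.28. No MS fetus was above 12.51, and each other group except LWMS at day 110 held fetuses above that. The difference between MS and LW was -0.97 ± 0.56 (adjusted p = 0.24) at day 90 and -1.70 ± 0.56 (adjusted p = 0.013) at day 110, and neither passed the threshold. With the slide as a block day 110 passed it (-1.65 ± 0.52, adjusted p = 0.0084) and day 90 did not (-0.97 ± 0.51, adjusted p = 0.17), and within slides MS was lower on 8 of 8 at day 90 and 5 of 6 at day 110. The other probes that start at 617 to 692 had a smaller spread, such as 14.71 to 16.13 in LW and 14.62 to 14.84 in MS at day 110 on A_72_P730073. On the main RPL6 probe, by contrast, MS minus LW at day 110 was -0.20 (adjusted p = 8.9e-05), with 0.13 and no call on the other scale.

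RPL38, a large subunit protein known for its part in Hox mRNA translation, showed a like spread on A_72_P016041. LW fetuses were at 12.81 to 15.71 at day 90 and 12.50 to 14.68 at day 110, LWMS at 12.77 to 15.05 at day 90, and MSLW at 12.48 to 15.20 at day 90 and at 12.16, 12.52, 14.30, 14.53 and 14.58 at day 110. MS fetuses were all low, at 12.21 to 13.03 and 12.23 to 12.70. The difference of MS from LW was -1.12 (adjusted p = 0.071) at day 90 and -1.63 ± 0.45 (adjusted p = 0.003) at day 110, with -1.58 on the other scale and -1.68 (adjusted p = 0.0027) with the slide as a block. The main RPL38 probe gave -0.22 at day 110.

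**Figure D5:**
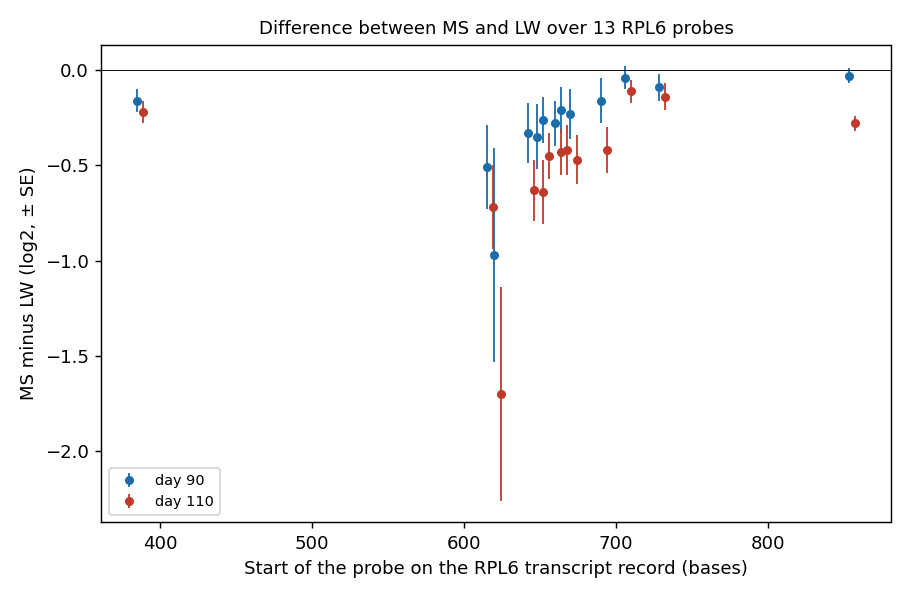
MS minus LW (log2, quantile normalization) of each RPL6 probe at day 90 and day 110 against its start position in the target sequence (bases), with bars of 1 standard error, for the 13 probes with a start (points of the 2 days are set slightly apart). Probes that start between 617 and 692 reach -0.97 at day 90 and -1.70 at day 110, and probes on either side stay between -0.28 and -0.03.

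In 4 of 83 genes (4.82%, against 5.95% of all probes) MS and LW differed in their age change, all with a larger fall in MS (3.39% of all probes had a negative difference). RPS27A, which is made as a fusion with ubiquitin, was at 17.58 to 17.83 (median 17.73) in LW and 17.66 to 17.81 (median 17.70) in MS at day 90. At day 110 it was at 17.27 to 17.63 (median 17.60) in LW and 17.04 to 17.30 (median 17.16) in MS, so that the breeds overlapped fully at day 90 and barely at day 110. Its difference in age change was -0.35 ± 0.08 (adjusted p = 0.0015), and those of RPL23, RPL11 (which binds MDM2 when ribosome assembly fails) and RPL32 were -0.32, -0.29 and -0.19. None of the 4 was called after 75th percentile scaling, which gave 0.12, 0.10, 0.17 and 0.22 and called 13 other genes, all with the opposite sign (4.74% of all probes). With the slide as a block 12 genes were called, 10 of them negative. By the breed of the sow, the age change differed in RPS27A (-0.24, adjusted p = 0.0036) and RPL32 (-0.17, adjusted p = 0.0034), 2 of 83 genes, against 2.91% of all probes and 1.81% with a negative difference, with 0.02 and 0.07 on the other scale. The call of RPS27A was lost without MSLW replicate 3 of day 110 (-0.23, adjusted p = 0.011) and that of RPL32 without slide 8 (-0.15, adjusted p = 0.019). By the breed of the boar limma called 0 genes, against 0.497% of all probes, with 4 at an unadjusted p under 0.05.

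Among other genes of translation, lower values on the quantile scale with higher ones on the other were called in 8 of 53 translation factors and 2 of 73 genes of ribosome biogenesis, against 1.4% of all probes called in opposite directions. They included EEF1A1 (-0.41 and 0.12), the elongation factor that brings tRNA to the ribosome, EEF1G (-0.32 and 0.23), a subunit of its exchange complex, and the nucleolar proteins NPM1 (-0.32 and 0.20) and FBL (-0.22 and 0.24). FAU and GNB2L1, which encode further proteins of the cytosolic ribosome, changed by -0.35 and -0.25 on the quantile scale and by 0.19 and 0.27 on the other. Of 56 mitochondrial ribosomal proteins, 52 rose with age and 1, MRPS6, fell, with a median of 0.61 (0.76 on the other scale, with 54 higher and none lower), and MRPL38 (1.5) and MRPS2 (1.22) rose most. At day 110, 27 of the 56 were higher in MS and 2 lower, against 13.7% and 15.2% of all probes. Of 73 measured genes of ribosome biogenesis, 36 rose and 8 fell (41 and 2 on the other scale), with MRTO4 (1.13) and RRP9 (0.71) highest. XPO1, the export receptor, fell by 0.42, and NOP56, a small nucleolar particle protein, by 0.45, with -0.09 on the other scale. At day 110, 17 of the 73 were lower in MS and none higher, against the same shares. Of 53 translation factors, 23 rose and 17 fell (39 and 5 on the other scale), among them EEF1A2, the elongation factor of mature muscle (1.74), EIF1 (1.31), the poly(A)-binding protein PABPC1 (-0.66) and EIF3F (-0.57, with -0.07 on the other scale). Of 25 genes of mTOR signalling to the ribosome, 20 rose and none fell, with DDIT4L (1.56) and the translational repressor EIF4EBP1 (1.32) highest. Of all probes, 37.3% were higher and 35% lower at day 110.

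Markers of the cells and states in the muscle moved strongly over the same days. Of 15 measured proliferation markers, 14 fell and 1, MKI67, rose, with a median of -3.32, and TOP2A fell by 3.99. The log2 of their summed signal was 14.06 to 14.59 at day 90 and 12.85 to 13.60 at day 110. All 14 fibroblast and matrix genes fell, with a median of -1.49 and POSTN at -3.59. The log2 of their summed signal went from 18.90 to 19.29 down to 16.69 to 18.04. At day 110 it was lower in MS (16.69 to 17.04) than in LW (17.32 to 18.04), without overlap. Of 8 endothelial markers 6 fell, and of 21 skeletal muscle markers 14 rose and 4 fell, where MYH4 rose by 1.75 and the embryonic myosin MYH3 fell by 2.57. Erythroid, adipocyte and immune markers changed in both directions or in few genes (4 up and 4 down of 9, 2 and 4 of 7, 0 and 3 of 7). In muscle taken whole, fewer cells of a type and less RNA per cell cannot be told apart, and the part of these markers in the changes of the ribosomal proteins was not tested.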

How the data were processed

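Per the labels and the study's methods, Cy3-labelled total RNA from single fetuses was hybridized to 1-colour porcine oligonucleotide arrays, which were read with Agilent Feature Extraction 10.10.1.1. The authors deposited the spot intensity of each array, background-corrected but not normalized between arrays, and a table of quantile-normalized log2 values made with limma. The intensity values were used here. Control spots were left out of 60306 others, spots marked as non-uniform were set to missing, intensities were quantile normalized and log2 transformed, and spots of a probe were averaged. Probes that the scanner marked well above background in 80% or more of the arrays of some group were kept (42436 probes). The 8 group means were fitted over all kept probes with limma 3.58.1 in R 4.3.3, without the study's random sow effect, and contrasts were called at 1% after Benjamini-Hochberg adjustment. The number of arrays limits the precision. P values measure the spread between fetuses, some of them littermates.

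The members and the gene lists were chosen with earlier results of these data known. Named genes were those with the largest called changes in each comparison, the paralogs, the stalk genes with RPSA and RPS6, and the ribosomal proteins in the study's additional lists. The deposited log2 values match the scanner files by row (r = 0.978 to 0.993 per array) and, like the 75th percentile scaling, normexp with offset 50 on the mean signal, the median signal, other filters, the slide as a block, other probe averages, subsets of fetuses and single arrays left out, were alternatives. The tests were checked on simulated data. No genome was used. Values of some genes are not reported here.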

Additional observations from a re-analysis of the deposited data

Results flagged for a closer look

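Of 296 groups of single genes tested for a fetus far from the others, 26 were picked out, and chance alone picks out about 1 in 20 such groups. The furthest was RPS2 in MSLW at day 90, where the lowest of 8 fetuses was at 2.38, and the lowest RPS2 level of MSLW at day 110 was 9.19. RPL37 had a low fetus in LW (6.15), MS (6.15) and MSLW (5.47) at day 90. Low fetuses were also seen for RPL7L1 in LW at day 110 (12.90), RPS4 in LW at day 90 (16.26), RPS6 in MSLW at day 90 (15.63), RPS27A in LWMS at day 110 (17.20), RPL11 in MS at day 90 (17.69) and RPS3 in MSLW at day 90 (17.85). RPLP1 was low in 1 fetus of LW (18.15) and of MSLW (18.18) at day 90, RPS20 likewise (18.15 and 18.08), and RPLP2 in 1 of MSLW at day 110 (18.09). High fetuses were those of RPL27 in LW at day 90 (16.44) and MSLW at day 110 (16.13), RPS27A in LWMS at day 90 (17.95), RPL11 in MS at day 110 (17.45), RPL10L in MS at day 90 (16.57) and RPS23 in LW at day 110 (17.82). RPL22L1 was high in 1 fetus of LW (8.14) and of MSLW (7.97) at day 90, and RPSA in 1 of MSLW at day 90 (16.82) and of MS at day 110 (16.34).

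By the interaction term of the limma fit, MS and LW differed in their age change for RPS27A (-0.35), RPL23 (-0.32), RPL11 (-0.29) and RPL32 (-0.19), and between the breeds of the sow for RPS27A (-0.24) and RPL32 (-0.17). All 6 are values of the quantile scale and had the opposite sign after 75th percentile scaling.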

How the results depend on the processing

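The scaling mattered most. Under 75th percentile scaling the member median of the age change reversed to 0.21, and 11 genes were called in LW, 34 in LWMS, 25 in MSLW, 21 between MS and LW at day 110, 13 in the difference of age change and 4 by the sow. Named genes that reversed there were, for the age change, RPL10L (0.51), RPLP1 (0.43), RPS20 (0.29), RPL6 (0.25), RPL7 (0.24), RPS6 (0.17), RPL31 (0.17), RPL32 (0.17), RPS3 (0.15), RPSA (0.14), RPS27A (0.14), RPL11 (0.11), RPL23 (0.11), RPL26L1 (0.11), RPL36AL (0.10) and RPS23 (0.04), for the difference between MS and LW in age change RPL11 (0.17), RPS27A (0.12) and RPL23 (0.10), and for the sow RPL32 (0.07) and RPS27A (0.02). As the mean over all probes of a gene, RPL12 at day 90 (-0.08) and the age change of RPLP1 (0.07) reversed, and 1 gene was called between the crosses at day 90. The median signal gave 5 genes between MS and LW at day 90, 1 between the crosses at day 90 and 0 by the sow, normexp gave 1 and 1 for the last of these, and the deposited values 1 and 0. The slide as a block gave 12 genes in the difference of age change and 6 by the sow. LW and MS fetuses alone gave 2 in the difference of age change. Without slide 8, added after the values were seen, 1 gene was called by the sow, and leaving out single MSLW fetuses of day 110 gave 1 (without replicate 3) to 3. The causes were not tested. The other counts stayed within 1.5 times their value. Of the named genes, 8 kept their direction and lost their call under 75th percentile scaling, and at most 5 did so under any other alternative, among them RPLP1 with marked spots kept (-0.02, adjusted p = 0.85). No paired analysis was possible because replicate numbers only name the fetuses and the sow is not given, while the slide, which holds several groups, was used as a block. Of the 83 main probes, 4 had a mean level below 8, and 80 were above background on all arrays. Of the 14 genes higher at day 110 under both scalings, however, 12 had a main probe below 14.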
